A study of Mus musculus with 6 samples.

Results

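Phagocytes, the monocytes, macrophages and neutrophils of the blood and tissues, take up microbes and debris and kill them with granule proteins and reactive oxygen. The genes described here are 32 effector and surface genes of these cells, listed by name, and 30 of them were measured, of 18193 genes in all. Clec12a and Retnlg were not analysed here. Each gene is represented by its brightest probe set by 6-array mean, taken from those annotated to that symbol alone. The 20 genes whose 6-array mean was 6 or more on the log2 scale are called bright and the 10 others dim.

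The cells were LKS+ cells of mice, which are negative for mature-lineage markers, high in c-Kit and positive for Sca-1, and include stem cells and multipotent progenitors. They came from 3 Apcmin mice and 3 wild-type (WT) mice. Min is an allele of Apc that ends the protein early, and Apc is a scaffold of the complex that marks beta-catenin for degradation. Each array was taken as 1 mouse, since the labels count cells per mouse, at least 20000 at a purity above 90%, but name no animals. The labels give no zygosity, strain background, sex or age and name no treatment. RNA was amplified linearly before hybridization to Affymetrix Mouse Genome 430 2.0 arrays. The series title speaks of altered stem cell function and of a model for MPD/MDS, the myeloproliferative and myelodysplastic diseases, which raises the question whether genes of mature myeloid function differ in these early cells.

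Early progenitors are known to carry low levels of transcripts from several blood lineages before they commit, and genes of the granulocyte and monocyte program are among them. Within that program, granule enzymes are made first, at the promyelocyte stage, and gelatinases and other late granule proteins follow. The sort selects against cells with lineage markers, so mature phagocytes should be few.

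As a check of the sort, 6 of 7 listed stem and progenitor genes were measured, and all 6 were bright, with a mean log2 level per array of 9.90 to 10.01 in Apcmin and 9.76 to 10.04 in WT. Defining markers of macrophages were dim in both groups, 5 of 5 with a mean under 6. Their summed intensity was 50.2 to 60.7 in Apcmin and 45.3 to 65.2 in WT. Marco among them is also on the phagocyte list, as is Mmp8 among the mature neutrophil markers. T-cell markers were likewise all dim (5 of 5), and so were the erythroid ones (4 of 4). Other mature-cell lists held bright genes: 3 of 5 mature neutrophil markers (Camp, Ngp and Ltf), 2 of 3 platelet, 2 of 3 mast cell and basophil, 1 of 3 NK-cell (Nkg7) and 1 of 3 B-cell markers (Cd79b). No marker was at 0. Median log2 intensity per array was 4.14 to 4.17 in Apcmin and 4.12 to 4.18 in WT. The whole comparison gave no call: 0 of 45037 probe sets passed an adjusted p of 0.05 in limma, which is a background of 0%. Limma is a linear model that draws the variance of each probe set towards a common value. The unadjusted p was under 0.05 for 1714 probe sets, or 3.81%.

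None of the 30 phagocyte genes passed, and their adjusted p ranged from 0.954 to 0.997 (limma, Benjamini-Hochberg over all probe sets). A single gene, Cd14, had an unadjusted p under 0.05, where the background over genes was 3.11% in either direction and 1.89% in the lower direction, and 4.72% over dim genes, the class Cd14 belongs to. In Apcmin, 23 of the 30 had a lower mean than in WT, or 76.7%, against 57% of all genes. Lyz1 and Lyz2 are both among the 23. They are counted as separate genes in every count here, though their signals cannot be taken as separate, as described below. The median log2 difference (Apcmin minus WT) was -0.13 over the 30 genes and -0.036 over all genes. Because dim genes as a class leaned down in Apcmin, bright and dim genes are read against genes of their own class.

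Among the 20 bright genes, 15 had a lower mean in Apcmin (75.0%), where the share of all bright genes was 43.7%. Their median difference was -0.084, against 0.023 over the 8658 bright genes, and single differences ran from -0.43 for Hk3 to 0.43 for Tlr4. In 2 of the 20 (Cyba and Cd68) every Apcmin array lay below every WT array, where 3.48% of bright genes did so, and in 0 of all 30 genes did every Apcmin array lie above, where 2.97% of all genes did. Averaged over the bright genes, the arrays deviated from the 6-array mean by 0.046, -0.053 and -0.10 in Apcmin replicates 1 to 3, and by 0.051, -0.026 and 0.087 in WT replicates 1 to 3. The groups overlapped in that average, with Apcmin replicate 1 above WT replicate 2. The median half-width of the 95% interval of a bright gene's difference was 0.47 on the log2 scale, a factor of 1.38, and 19 of the 20 intervals lay within a 2-fold change either way, Tlr4 being the exception. All 20 held 0.

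The 10 dim genes had a lower mean in Apcmin in 8 cases (80.0%), where dim genes as a class did so in 69.1%. Their median difference was -0.33 in this list and -0.12 over the 9535 dim genes. That value rested on 1 array: without WT replicate 2 the median of the dim genes was 0.052. WT replicate 2 was the highest array for 6 of the 10, and for 2734 of the 9535 dim genes. Dim genes also scattered more, with a median range over the 6 arrays of 1.32 on the log2 scale, against 0.68 in bright genes, and 4 of 10 intervals lay within a 2-fold change. In a pooled RNA sample fewer cells of a type and less RNA per cell cannot be told apart.

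**Figure D1:**
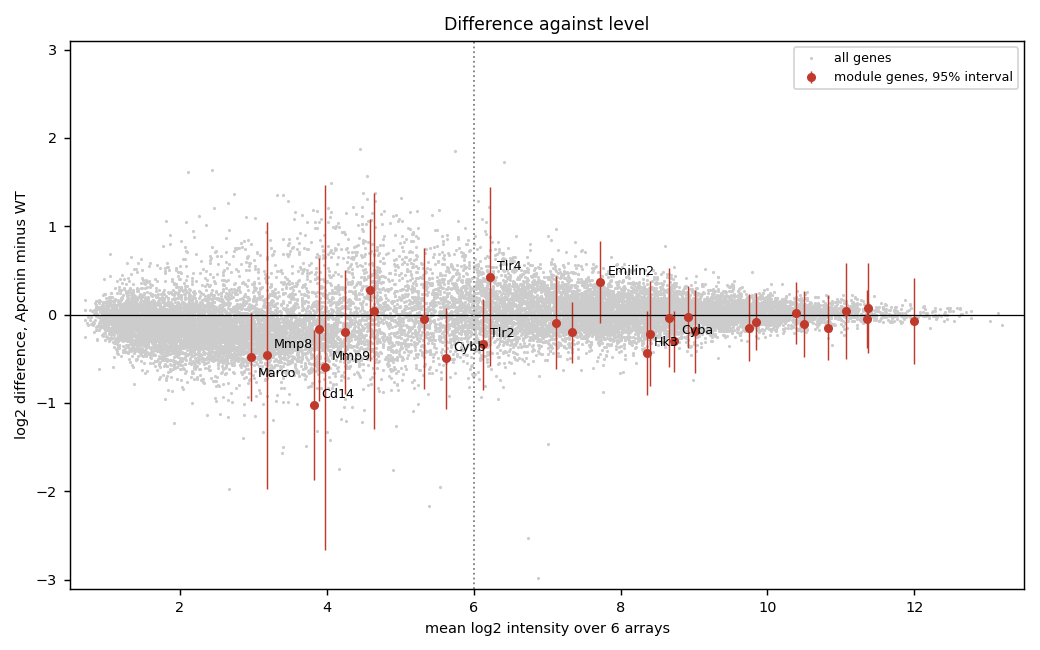
Log2 difference (Apcmin minus WT, vertical) against mean log2 intensity over 6 arrays (horizontal) for all 18193 genes (grey) and the 30 phagocyte genes (red, with 95% intervals from limma); the dotted line is the limit between dim and bright genes at 6. Of the 20 bright phagocyte genes 15 lie below 0, and 29 of 30 intervals hold 0, Cd14 being the exception.

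Genes for stored and secreted proteins were bright on their brightest probe sets, and all 5 had a lower mean in Apcmin, with a median difference of -0.11. The 5 include Lyz1 and Lyz2, whose signals cannot be taken as separate. S100a8 and S100a9 encode the subunits of calprotectin, the metal-binding protein that fills the neutrophil cytoplasm. S100a8 was at 11.37, 11.34 and 11.30 in Apcmin replicates 1 to 3 and 11.26, 11.40 and 11.49 in WT replicates 1 to 3 (log2 intensity, as for all levels here). The groups differed by -0.046 (SE 0.14). S100a9 was at 11.88, 11.94 and 12.07 in Apcmin and 11.68, 12.38 and 12.05 in WT, and the WT arrays held both the lowest and the highest value. Its difference of -0.071 was well inside that spread, and without WT replicate 2 it was 0.099. Hp, haptoglobin, which binds free hemoglobin and is stored in neutrophil granules, was at 9.12, 8.56 and 9.10 in Apcmin and 9.25, 9.03 and 9.07 in WT, with Apcmin replicate 2 apart from the 5 others. Its difference of -0.19 had a 95% interval from -0.66 to 0.28, and without that array it was -0.0022.

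Lysozyme, the enzyme that cuts bacterial cell walls, is encoded in mice by the neighbouring copies Lyz1 and Lyz2. Lyz2 was at 10.31, 10.62 and 10.42 in Apcmin and 10.39, 10.68 and 10.59 in WT, a difference of -0.11 (95% interval -0.48 to 0.27). The brightest Lyz1 probe set was at 10.64, 10.81 and 10.82 in Apcmin and 10.78, 11.10 and 10.84 in WT, a difference of -0.15. For both genes the groups overlapped, Apcmin replicate 1 was lowest and WT replicate 2 highest. With 1 array left out the Lyz2 difference was as small as -0.034 (without Apcmin replicate 1) and that of Lyz1 as small as -0.052 (without WT replicate 2). That Lyz1 probe set and the next one, which differed by -0.23, carry the suffix _x_at, by which the maker marks probes that can bind other transcripts. The remaining Lyz1 probe set lacks the suffix and was at 2.61, 2.66 and 2.56 in Apcmin and 2.56, 2.54 and 2.76 in WT, near the bottom of the intensity range, with a difference of -0.0062. The signal named Lyz1 and the signal named Lyz2 therefore cannot be taken as separate genes here.

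The likeness of the copies shows in their promoters. Over the 250 bases before the start, taken from RefSeq (GRCm38.p6), 205 of 260 aligned columns were identical (78.8%), and the starts lie 10596 bases apart. The sequences are shown to let the copies be compared. Capitals mark the longest run that both share, the last 50 bases before the start. Lyz1 is at chr10:117292869-117293118 and Lyz2 at chr10:117282273-117282522, both on the minus strand.
Lyz1: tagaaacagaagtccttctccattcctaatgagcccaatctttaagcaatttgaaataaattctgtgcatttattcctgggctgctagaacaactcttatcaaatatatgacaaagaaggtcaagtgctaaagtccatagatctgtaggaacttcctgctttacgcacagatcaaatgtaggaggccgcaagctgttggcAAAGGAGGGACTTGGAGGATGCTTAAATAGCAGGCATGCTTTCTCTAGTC
Lyz2: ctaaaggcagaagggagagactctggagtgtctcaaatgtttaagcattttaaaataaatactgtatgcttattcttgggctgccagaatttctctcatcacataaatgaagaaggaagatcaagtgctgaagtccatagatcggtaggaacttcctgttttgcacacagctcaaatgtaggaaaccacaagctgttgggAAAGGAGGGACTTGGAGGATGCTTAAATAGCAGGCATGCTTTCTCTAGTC

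Late neutrophil genes were dim and varied more between arrays of a genotype than between the genotypes. Mmp8, the neutrophil collagenase, was at 3.92, 2.52 and 2.41 in Apcmin and 2.55, 4.69 and 3.0 in WT. Mmp9, the gelatinase of late granules, was at 5.28, 3.68 and 2.06 in Apcmin and 3.73, 5.53 and 3.55 in WT. Cd177, a neutrophil surface protein, was at 4.89, 3.87 and 5.24 in Apcmin and 3.49, 5.44 and 4.94 in WT. WT replicate 2 was the highest array for all 3, and in none did the groups separate. The differences were -0.46, -0.60 and 0.043, with standard errors of 0.64, 0.87 and 0.56. A second Mmp9 probe set, also dim, differed by -0.67. Mean deviation of the 3 genes was 0.76, -0.58 and -0.69 in Apcmin replicates 1 to 3 and -0.68, 1.29 and -0.10 in WT replicates 1 to 3, a range of 1.46 in Apcmin and 1.97 in WT.

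The same array stood out in genes of secondary granules and mature neutrophils that are not on the phagocyte list. All 10 listed were measured and 8 were bright, with 6 lower and 4 higher in Apcmin and a median difference of -0.078. Their mean level was 6.94, 6.89 and 6.98 in Apcmin and 6.65, 7.32 and 7.11 in WT (two-sided exact permutation p = 0.70, where 0.10 is the smallest possible). Ltf, lactoferrin of secondary granules, is an example chosen after its values were seen. It was at 7.27, 7.36 and 7.24 in Apcmin and 6.01, 8.15 and 7.33 in WT, so that WT replicates 1 and 2 held the lowest and the highest value. By the rule of smallest p, Itgb2, the common chain of the beta2 integrins, was at 6.66, 6.72 and 6.77 in Apcmin and 7.21, 7.45 and 7.02 in WT with no overlap (difference -0.51, unadjusted p = 0.0165). Padi4, which citrullinates histones in neutrophils, differed by -0.22. Neither passed after adjustment (limma, adjusted p = 0.954 for both). Of all bright genes 3.48% separated the groups with Apcmin lower, as Itgb2 did. Genes of primary granules, which are made earlier, were bright in 5 of 5 cases and differed by a median of -0.087. Of these Ms4a3, a membrane protein of granulocyte and monocyte progenitors, differed by -0.15 and Elane, neutrophil elastase, by -0.13.

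**Figure D2:**
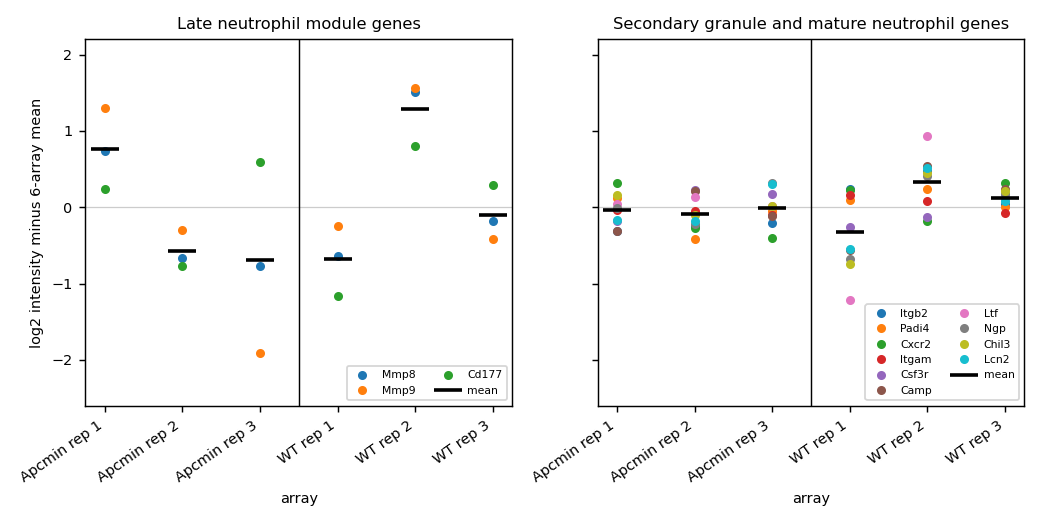
Deviation of each gene's log2 intensity from its 6-array mean (vertical) by array (horizontal, Apcmin left of the line, WT right), for the 3 late neutrophil genes of the phagocyte list (left panel) and 10 further neutrophil genes (right panel); black bars are means over the genes of a panel. WT replicate 2 has the highest mean in both panels, at 1.29 for the 3 late genes, and WT replicate 1 the lowest mean of the right panel.

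The NADPH oxidase makes superoxide in phagocytes from a membrane pair, Cybb (gp91phox) and Cyba (p22phox), and cytosolic parts that include Ncf1 (p47phox) and Ncf4 (p40phox). All 4 genes had a lower mean in Apcmin, with a median difference of -0.17. Averaged over the 4, the arrays deviated from their mean by 0.12, -0.15 and -0.30 in Apcmin and 0.068, 0.095 and 0.16 in WT, so that Apcmin replicate 1 lay among the WT arrays. Cyba was at 8.67, 8.59 and 8.49 in Apcmin and 9.0, 8.91 and 8.74 in WT. Each Apcmin array lay below each WT array, by 0.069 at the nearest. The mean was 8.58 ± 0.09 in Apcmin and 8.88 ± 0.13 in WT (SD, n = 3 each), a difference of -0.30 (SE 0.14) and a 95% interval from -0.64 to 0.044 (limma, unadjusted p = 0.0780, adjusted p = 0.954). That is -18.8% in intensity.

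Cybb was dim, at 5.76, 5.04 and 5.31 in Apcmin and 5.56, 5.89 and 6.15 in WT. Its difference of -0.50 had a 95% interval from -1.07 to 0.079. The groups overlapped because Apcmin replicate 1 lay above WT replicate 1. Its other probe sets differed by -0.55 and -0.65, so all 3 had the same sign, and in the dimmest each Apcmin array was below each WT array. The mean of the 3 probe sets differed by -0.57, with an unadjusted p of 0.0042 and an adjusted p of 0.930 over gene means (limma). Like Cyba, Cybb kept a lower mean in Apcmin with each array left out. It also did so with further quantile normalization, array weights and median centring, while the filter at 6 leaves it out.

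The cytosolic subunits differed less on their brightest probe sets. Ncf4 was at 8.99, 8.98 and 8.73 in Apcmin and 8.88, 9.03 and 8.88 in WT, a difference of -0.028. Ncf1 was at 9.02, 8.71 and 8.20 in Apcmin and 8.76, 8.48 and 8.80 in WT, a difference of -0.035 that turned to 0.19 without Apcmin replicate 3. Its 2 other probe sets differed by -0.25 and -0.44. In the last of these each Apcmin array lay below each WT array (unadjusted p = 0.0221, adjusted p = 0.954, limma). The 3 Ncf1 differences had standard errors of 0.24, 0.21 and 0.15, from the brightest probe set to the dimmest. Whether they differ from each other was not tested.

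Other parts of the oxidase did not follow 1 direction. Of 5 listed partners 4 were measured, all bright, with 3 lower and 1 higher in Apcmin and a median difference of -0.10. Rap1a, a small GTPase that copurifies with the membrane pair, was at 9.60, 9.38 and 9.55 in Apcmin and 9.66, 9.63 and 9.74 in WT, with no overlap and a difference of -0.17. Cybc1, a chaperone of the membrane pair, differed by -0.15. Neither had an unadjusted p under 0.05. Like Rap1a, 3.48% of all bright genes separated the groups with Apcmin lower.

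**Figure D3:**
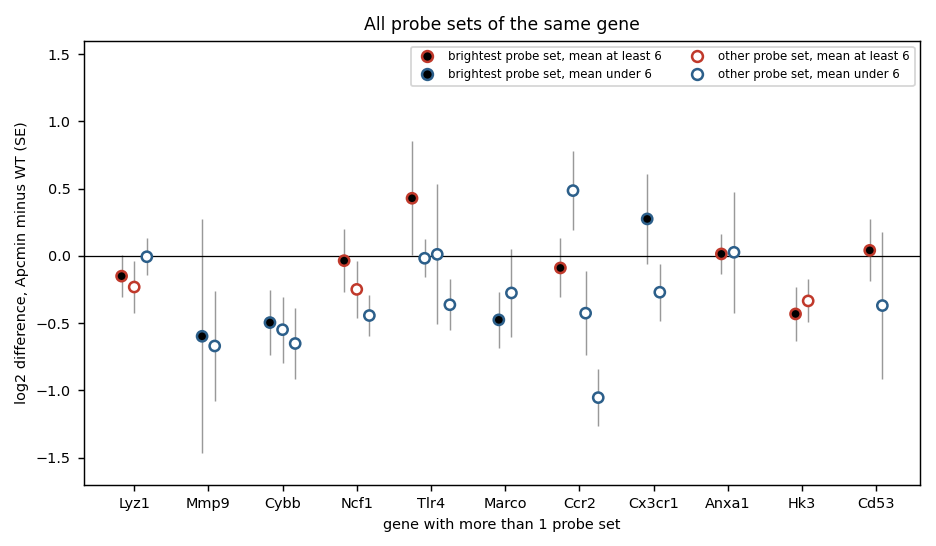
Log2 difference (Apcmin minus WT, with standard errors) for every probe set of the 11 phagocyte genes with more than 1; filled points are the brightest probe set, which stands for the gene, and outlines tell a mean of at least 6 (red) from one under 6 (blue). The 3 Cybb probe sets and both Hk3 probe sets lie below 0, while those of Ccr2 and Tlr4 lie on both sides.

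Innate immune receptors were mixed in level and in direction. The 6 measured had 5 lower and 1 higher mean in Apcmin and a median difference of -0.28. Tlr2, which senses bacterial lipopeptides, was at 6.34, 5.74 and 5.78 in Apcmin and 6.29, 6.07 and 6.51 in WT, with Apcmin replicates 2 and 3 below the 3 WT arrays and Apcmin replicate 1 among them. Its difference was -0.34 (95% interval -0.86 to 0.18) and ran from -0.53 (without Apcmin replicate 1) to -0.23 (without WT replicate 3) with 1 array left out. Tlr4, the receptor for lipopolysaccharide, went the other way at 6.66, 6.63 and 6.01 in Apcmin and 5.28, 5.80 and 6.93 in WT. WT replicate 3 was above all Apcmin arrays while the other WT arrays were below them, and the difference was 0.43 (SE 0.43). Without WT replicate 1 it was 0.069, and without WT replicate 3 it was 0.89. The 3 other Tlr4 probe sets, all dim, differed by -0.018, 0.012 and -0.36, and the mean of all 4 differed by 0.015.

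Cd14, which hands lipopolysaccharide to Tlr4, had the largest difference on the list and was dim. It was at 3.36, 2.77 and 3.79 in Apcmin and 4.90, 4.31 and 3.79 in WT. Each Apcmin array lay below each WT array, but Apcmin replicate 3 and WT replicate 3 were only 0.0014 apart. Of all genes 4.76% lay wholly below WT in this way, and of dim genes 5.93%. The difference was -1.02 with a 95% interval from -1.87 to -0.18 (limma, unadjusted p = 0.0246, adjusted p = 0.954). With values under 4 set to 4 it was -0.40 (unadjusted p = 0.184). With 1 array left out it ran from -1.29 to -0.74, with an unadjusted p of 0.0112 to 0.0773 that was under 0.05 only without WT replicate 3 (0.0112) or Apcmin replicate 3 (0.0145).

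Ly86 (MD-1), which pairs with the Toll-like protein Cd180, was at 8.49, 8.30 and 8.09 in Apcmin and 9.0, 8.38 and 8.14 in WT, where replicate 1 stood above the rest. The difference of -0.22 became 0.030 without that array. Cd33, a sialic-acid-binding inhibitory receptor, differed by -0.20 within a range of 1.11 over the arrays. Marco, a scavenger receptor of macrophages, differed by -0.48 at 2.73 ± 0.16 in Apcmin and 3.21 ± 0.34 in WT. It was under 4 on every array, so that a floor at 4 leaves no value to compare. Its other probe set differed by -0.28.

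Partners of these receptors were not shifted in 1 direction. Of 7 listed 6 were measured, 2 lower and 4 higher in Apcmin, with a median difference of 0.21. Tlr1 and Tlr6, which pair with Tlr2, went opposite ways at dim levels. Tlr1 was at 4.72, 3.80 and 3.80 in Apcmin and 3.25, 2.98 and 3.30 in WT (difference 0.93, unadjusted p = 0.0126). Tlr6 was at 3.89, 3.91 and 4.18 in Apcmin and 4.60, 4.44 and 4.22 in WT (difference -0.43, unadjusted p = 0.0398). Both separated the groups and neither passed after adjustment (limma, adjusted p = 0.954). Of all 9535 dim genes, 565 separated the groups with Apcmin lower and 180 with Apcmin higher.

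Of the chemokine receptors, Ccr2, which draws monocytes out of the marrow, was bright at 7.27, 6.88 and 7.08 in Apcmin and 7.49, 6.78 and 7.23 in WT. The groups overlapped, and the difference was -0.089. Its 3 other probe sets were dim and differed by 0.49, -0.43 and -1.05. The last of these was at 2.76, 2.85 and 3.41 in Apcmin and 4.21, 3.98 and 3.99 in WT with no overlap (unadjusted p = 0.00164, adjusted p = 0.954, limma), a pattern that its bright probe set did not show. Cx3cr1, the fractalkine receptor of patrolling monocytes, was dim at 5.36, 3.96 and 4.85 in Apcmin and 4.41, 4.46 and 4.47 in WT. Its WT values lay within 0.059 of each other and inside the Apcmin range. The difference was 0.27, and a second, dimmer probe set differed by -0.27, the opposite sign.

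Both bright lipid mediator genes were steady over the arrays. Alox5ap (FLAP), which presents arachidonic acid to 5-lipoxygenase for leukotriene synthesis, was at 9.78, 9.93 and 9.70 in Apcmin and 9.87, 9.85 and 9.92 in WT. Anxa1, the phospholipid-binding annexin that dampens neutrophil influx, was at 10.42, 10.41 and 10.37 in Apcmin and 10.23, 10.36 and 10.56 in WT. Differences were -0.079 and 0.015, and their 95% intervals ran from -0.41 to 0.25 and from -0.34 to 0.36. The first interval reaches a factor of 1.32 at its far end and the second 1.29. Without Apcmin replicate 3 the Alox5ap difference was -0.027 and without Apcmin replicate 2 it was -0.14. A second, dim probe set of Anxa1 differed by 0.027. Alox5, the lipoxygenase itself, was measured by a single dim probe set and differed by -0.17. Among 6 listed leukotriene and formyl peptide genes 5 were measured, 2 lower and 3 higher. Ltb4r1, a leukotriene B4 receptor, differed by -0.22 and Pla2g4a, the phospholipase that frees arachidonic acid, by 0.22.

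Hk3, the hexokinase of myeloid cells, had the lowest difference (Apcmin minus WT) among the bright genes. It was at 8.27, 8.06 and 8.11 in Apcmin and 8.88, 8.63 and 8.22 in WT, and WT replicate 3 lay between Apcmin replicate 1 and the other Apcmin arrays. Means were 8.15 ± 0.11 in Apcmin and 8.58 ± 0.33 in WT (SD, n = 3 each), a difference of -0.43 or -25.9% in intensity (95% interval -0.91 to 0.044, limma, unadjusted p = 0.0691, adjusted p = 0.954). A second probe set, also bright, was at 7.28, 7.14 and 7.15 in Apcmin and 7.62, 7.67 and 7.29 in WT, where the groups did not overlap (difference -0.33), but it too carries the suffix _x_at. Without WT replicate 1 the difference of the first probe set was -0.28 (unadjusted p = 0.192), and without WT replicate 3 it was -0.61 (unadjusted p = 0.0115, limma).

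Cd68, a lysosomal membrane protein of macrophages, was at 7.12, 7.23 and 7.37 in Apcmin and 7.39, 7.55 and 7.38 in WT. Its groups did not overlap, but Apcmin replicate 3 and the lowest WT array were 0.0087 apart, and the difference was -0.20 (95% interval -0.55 to 0.14). Ctss, the lysosomal protease cathepsin S, was at 9.45, 9.79 and 9.80 in Apcmin and 9.83, 9.73 and 9.91 in WT. Apcmin replicate 1 was below the 5 other arrays, and without it the difference of -0.15 was -0.029.

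Emilin2, an extracellular matrix protein, was higher in mean in Apcmin, at 7.99, 7.59 and 8.15 in Apcmin and 7.74, 7.44 and 7.44 in WT. Apcmin replicate 2 lay below WT replicate 1, and the difference of 0.37 had a 95% interval from -0.097 to 0.83. Plac8, a small cysteine-rich protein, was at 11.59, 11.38 and 11.24 in Apcmin and 11.61, 10.94 and 11.43 in WT. Cd53, a tetraspanin of leukocytes, was at 11.28, 11.18 and 10.80 in Apcmin and 11.13, 10.66 and 11.35 in WT. For both, WT replicate 2 was the lowest array, the reverse of its place in the neutrophil genes, and the differences were 0.075 and 0.041. A second, dim probe set of Cd53 differed by -0.37, the opposite sign. Lgals3, the lectin galectin-3, was dim and differed by -0.046, with WT replicate 2 highest.

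**Figure D4:**
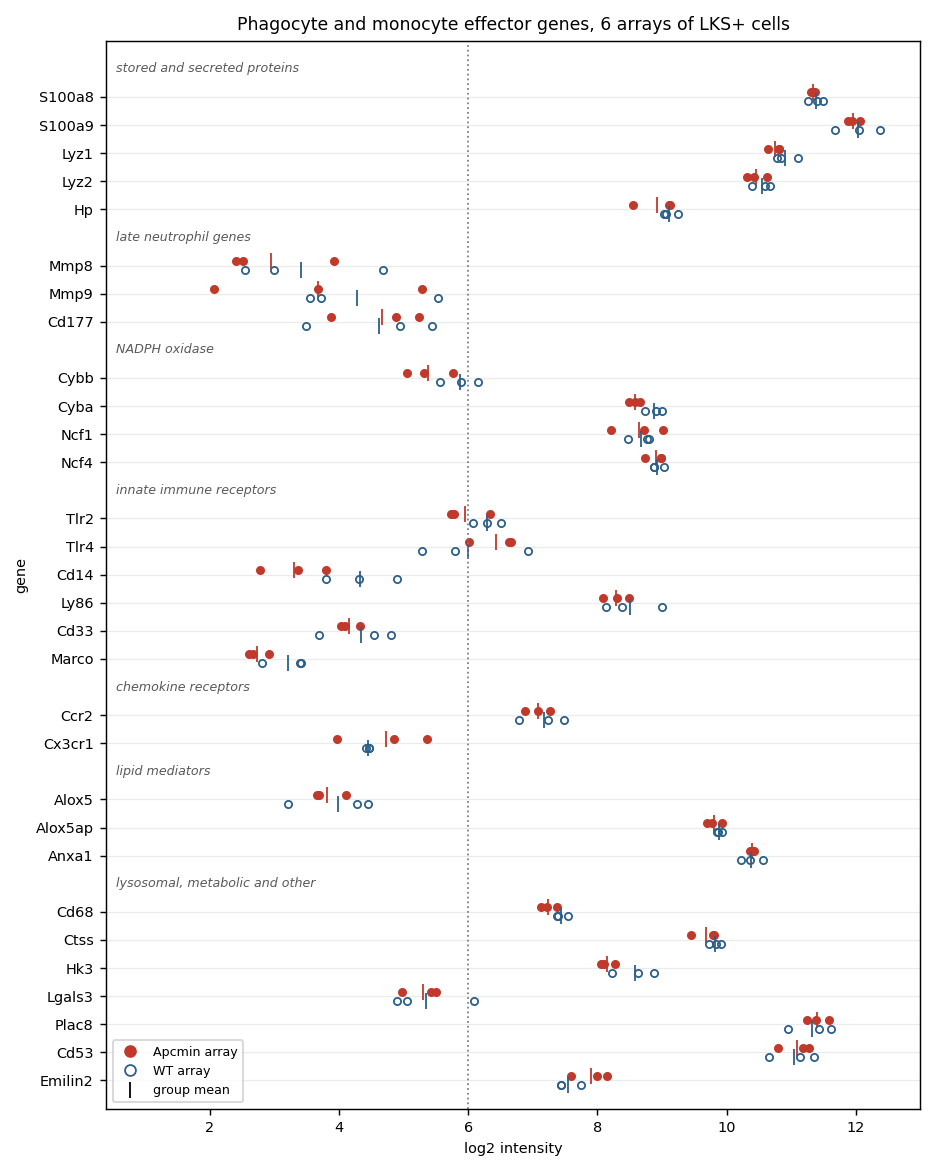
Log2 intensity (horizontal) of the 30 phagocyte genes on each array, with Apcmin arrays as filled red points above the WT arrays as open blue points in each row; ticks are group means and the dotted line is the limit between dim and bright genes at 6. Groups separate in 3 genes (Cyba, Cd14 and Cd68), all with Apcmin lower, and by 0.0014 for Cd14; of all 18193 genes 4.76% separate with Apcmin lower and 2.97% with Apcmin higher.

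The promoters of Cyba and Cd68, the bright genes whose groups did not overlap, and of Hk3, which had the lowest difference of the bright genes, were read for motifs of factors that drive the myeloid program. The motif GAGGAAG of PU.1 and the motif TTGCNNAA of C/EBP factors were searched on both strands in the 250 bases before the start (RefSeq, GRCm38.p6), and no window shown had overlapping matches. Of the 32 listed genes 26 had a promoter in the table, in 28 windows. PU.1 letters were in 6 of the 28 windows and in 10.6% of all 32851 windows, and C/EBP letters in 8 of the 28 and in 9.56% of all. A match is a description of letters. Capitals below mark the matches: 1 for PU.1 in Hk3, read on the other strand, and 1 for C/EBP in Cd68. Cyba held neither. The windows are chr8:122432941-122433190 for Cyba, chr11:69666171-69666420 for Cd68 and chr13:55021386-55021635 for Hk3, each on the minus strand. The start used for Hk3 in the promoter table lies inside the gene's annotated span, so that its window overlaps the 5′ end of that span, unlike the windows of the others.
Cyba: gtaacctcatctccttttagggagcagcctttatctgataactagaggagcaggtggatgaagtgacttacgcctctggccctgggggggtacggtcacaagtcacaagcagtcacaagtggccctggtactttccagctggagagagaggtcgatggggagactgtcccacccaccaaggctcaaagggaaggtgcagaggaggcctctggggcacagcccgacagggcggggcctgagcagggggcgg
Cd68: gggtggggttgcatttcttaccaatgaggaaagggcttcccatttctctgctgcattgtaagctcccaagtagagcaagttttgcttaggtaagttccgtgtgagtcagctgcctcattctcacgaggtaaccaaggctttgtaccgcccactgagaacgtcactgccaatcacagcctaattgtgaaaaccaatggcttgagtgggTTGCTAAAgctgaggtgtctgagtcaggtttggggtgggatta
Hk3: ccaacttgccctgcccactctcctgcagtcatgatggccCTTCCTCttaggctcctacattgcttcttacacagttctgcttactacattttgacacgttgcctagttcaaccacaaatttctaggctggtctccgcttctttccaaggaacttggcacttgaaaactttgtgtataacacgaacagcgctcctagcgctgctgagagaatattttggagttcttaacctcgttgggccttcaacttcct

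Across the list, high values lay mostly on WT arrays. The highest value was on a WT array for 26 of the 30 genes, 11 of them on WT replicate 2, 8 on WT replicate 3 and 7 on WT replicate 1. That is 86.7% of the list, against 60.5% of all genes, and 85.0% of its bright genes, against 49.7% of all bright genes. For its dim genes the share was 90.0%, against 70.3% of all dim genes. The lowest value was on an Apcmin array for 18 (60.0%), against 47.5% of all genes. Of the 11 genes highest on WT replicate 2, 6 were dim, and Lyz1, Lyz2 and S100a9 were among the 5 bright ones. Over all genes, WT replicate 1 was highest most often, for 4883 of 18193, then WT replicate 2 for 4064, and WT replicate 3 for 2062. Of the 11 genes with further probe sets, 13 of 18 further probe sets had the sign of the brightest. Counting every one of the 48 probe sets, 38 had a lower and 10 a higher mean in Apcmin.

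**Figure D5:**
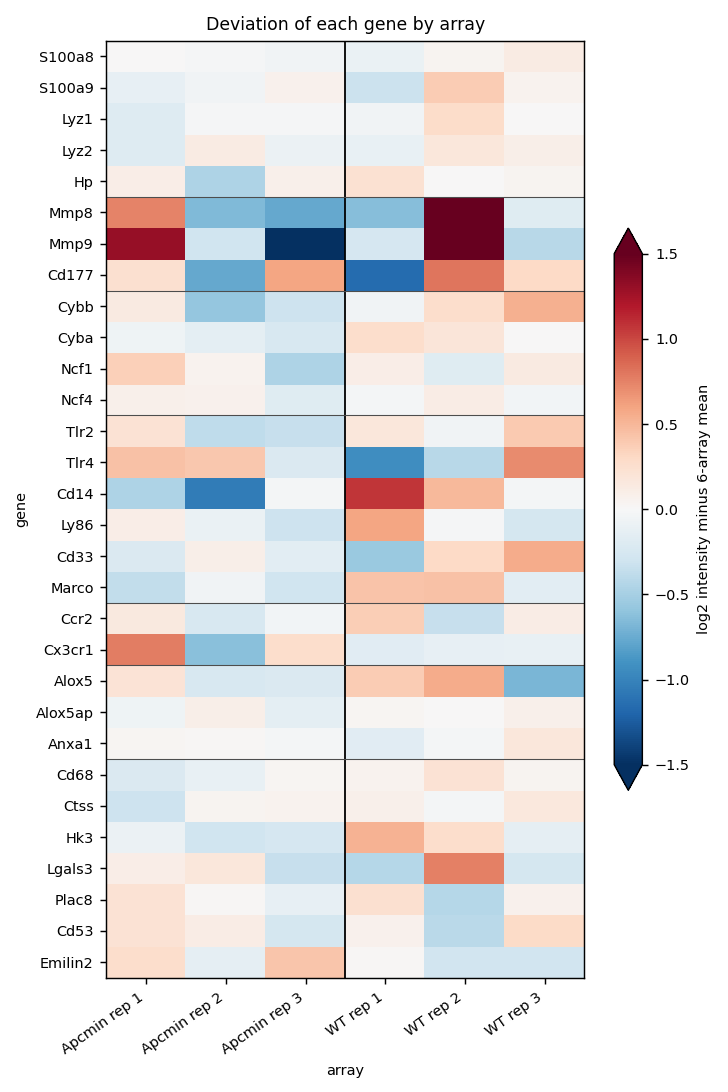
Deviation of each phagocyte gene's log2 intensity from its own 6-array mean (colour, red above and blue below, saturating at 1.5) by array, Apcmin left and WT right of the line; thin lines part the groups of genes by role. The strongest colours are in the dim genes Mmp8, Mmp9, Cd177 and Cd14, and WT replicate 2 is red for Mmp8, Mmp9, Cd177 and Lgals3.

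Markers of other cells were set beside these values. Monocyte and macrophage genes outside the list were measured for 11 of 12, with 8 lower and 3 higher in Apcmin, a median difference of -0.20 and 2 bright genes. That is 72.7% lower, against 69.1% of all dim genes and 43.7% of all bright genes. The median over all dim genes was -0.12. The same shares apply to the dim and bright markers of the lists below. Itgax, the integrin chain CD11c, differed by -0.61 and Msr1, a scavenger receptor, by -0.48, both dim. Mature erythroid markers were dim in 4 of 4 cases, and their summed intensity was 21.4 to 29.2 in Apcmin and 32 to 48.2 in WT, with no overlap in their mean log2 level (two-sided exact permutation p = 0.10, the smallest possible). They were lower in 3 cases and higher in 1. Slc4a1 differed by -1.49, Hba-a1 by -0.45 and Alas2 by -0.16, while Epb42 differed by 0.15. B-cell markers were lower in Apcmin in 3 of 3 cases and 1 was bright, with a summed intensity of 213.9 to 299.3 in Apcmin and 272.0 to 310.3 in WT. T-cell markers were lower in 4 of 5, summing to 43.9 to 63.5 in Apcmin and 55.7 to 64.8 in WT. Mature neutrophil markers, measured for 5 of 6, summed to 1316 to 1521 in Apcmin and 928 to 2130 in WT, where WT held both ends. Mmp8, which is on the phagocyte list, is among these markers. Markers of NK cells were lower in 3 of 3 cases and summed to 1576 to 1864 in Apcmin and 2108 to 2148 in WT. Their mean log2 level overlapped, at 5.19 to 5.79 in Apcmin and 5.42 to 5.94 in WT (two-sided exact permutation p = 0.50). The single bright NK-cell marker, Nkg7, a granule membrane protein of cytotoxic cells, differed by -0.34. Platelet markers, measured for 3 of 4, summed to 222.5 to 406.9 in Apcmin and 249.9 to 539.2 in WT. Mast cell and basophil markers, also 3 of 4, were higher in Apcmin in 3 of 3 cases and summed to 279.5 to 352.0 in Apcmin and 157.7 to 370.5 in WT. The part of carried-over cells in the values of the phagocyte genes was not tested.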

How the data were processed

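Gene expression was measured on 6 arrays of sorted LKS+ cells, 3 Apcmin and 3 WT, grouped by the genotype in the sample titles. The table the authors deposited gives a linear normalized intensity for each probe set on each array. The submitters' processing notes name RMA without a version or a background step. All values were positive (1.31 to 11375.3), so log2 was taken with no pseudocount. No detection call was used here, so dim values may be background. Of 45101 probe sets 64 controls were left out, leaving 45037. Exactly 1 symbol was listed for 34945, several for 932 and none for 9160. Through Entrez identifiers 34741 matched RefSeq (GRCm38.p6), and 0 symbols changed.

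Apcmin was compared with WT in limma 3.58.1 (R 4.3.3; lmFit, eBayes, genotype as the only term), with Benjamini-Hochberg adjustment over 45037 probe sets at 0.05. The limma step was tested on simulated data, in which the added changes were larger than any difference of the bright phagocyte genes. That test does not show whether differences of the size seen here would be found. Differences are Apcmin minus WT in log2. P-values measure the spread between these arrays, whose number limits the precision. The genes, lists, limit of 6 and motifs were chosen with earlier results of these data known. All measured listed genes are named, differences of further probe sets are given beside the brightest, and from each related list the 2 genes with the smallest p. Per-array values are given for bright genes and for dim ones that separate the groups or differ by 0.5, and for some others chosen after their values were seen. Levels of different probe sets serve to pick the brightest, to part bright from dim and to average or sum lists. They are not read as relative amounts of transcript. Alternatives were the replicate number as a block, the mean of all probe sets, further quantile normalization, a floor at 4, a filter at 6, a variance trend, array weights, median centring, a limit of 5 or 7, and leaving out each array.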

Additional observations from a re-analysis of the deposited data

How the results depend on the processing

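No call was made under any alternative: 0 of the 30 genes and 0 probe sets passed, and the smallest adjusted p over all probe sets was 0.333, without WT replicate 3 (limma, where 5864 probe sets then had an unadjusted p under 0.05). The causes of the changes below were not tested. The number of phagocyte genes at an unadjusted p under 0.05 was 1, where 3.11% of all genes had one, and the shares below are likewise over all genes tested. It was 2 when each gene's probe sets were averaged (3.82% of all genes), with further quantile normalization (3.09%) and with the filter at 6 (2.91% of bright genes), and 3 with a mean-variance trend (3.0%, of all genes again) and with array weights (5.43%). With 1 array left out it ran from 0 without WT replicate 2 (2.37%) to 6 without WT replicate 3 (12.9%). With the filter at 6 only the 20 bright genes remained and 15 were lower in Apcmin. With 1 array left out, 19 to 27 of the 30 were lower, and the median of the bright genes stayed between -0.13 and -0.061. The median of the dim genes ran from -0.52 (without WT replicate 1) to 0.052 (without WT replicate 2). With bright taken from 5 or from 7 the median of the bright genes stayed at -0.084.

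Of the 30 genes, 12 were lower and 2 (Emilin2 and Tlr4) higher in Apcmin under each alternative that gave a value. That was 14 alternatives for 11 of these genes, 13 for Cd14 and Cybb and 12 for Marco. Not all of these alternatives could turn a sign. The replicate block, the variance trend and the brightness filter leave each difference they give as it was. So does the mean of all probe sets for genes with 1 probe set, and the floor for genes above it on every array. The number of alternatives therefore overstates how often a sign was put to the test. With 1 array left out, 8 of these 14 genes moved by over 1.5 times: Alox5ap, Ctss, Hk3, Hp, Lyz1, Lyz2, Tlr2 and Tlr4. Elsewhere the sign turned for Cd53 with the mean of all probe sets (-0.16), Anxa1 with quantile normalization (-0.0034), Cd177 with the floor (-0.085) and with array weights (-0.14), and Ncf1 (0.00079) and Ccr2 (0.021) with array weights. With 1 array left out, differences that turned ran from -0.55 to 0.070 for Alox5, -0.064 to 0.10 for Anxa1, -0.28 to 0.072 for Ccr2, -0.52 to 0.45 for Cd177, -0.52 to 0.034 for Cd33, -0.15 to 0.19 for Cd53, -0.043 to 0.65 for Cx3cr1, -0.27 to 0.32 for Lgals3, -0.40 to 0.030 for Ly86, -0.95 to 0.18 for Mmp8, -1.40 to 0.21 for Mmp9, -0.22 to 0.19 for Ncf1, -0.071 to 0.054 for Ncf4, -0.12 to 0.21 for Plac8, -0.11 to 0.0050 for S100a8 and -0.25 to 0.099 for S100a9. Labels give both groups the same replicate numbers, but same-numbered arrays did not deviate together (correlations of 0.050, -0.054 and -0.25 over bright probe sets). With the replicate block, which in this balanced design can change the error but no difference, 0 genes passed (median -0.13, fixed by the design) and 1 had an unadjusted p under 0.05.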
